A study of Rattus norvegicus with 11 samples.

Results

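Genes of the transforming growth factor beta (TGF-beta) system were followed in the rat striatum after intracerebral hemorrhage. They were the ligands Tgfb1, Tgfb2 and Tgfb3, the latency protein gene Ltbp1, the receptors Tgfbr1 and Tgfbr2, the signal carriers Smad2 and Smad3, the inhibitor Smad7 and the corepressor Skil. Each was found by its gene symbol, which gave 10 of the 30560 genes listed, and all 10 passed the filter on low counts that was applied before testing. RNA was measured at day 3 in 11 adult male Sprague-Dawley rats, with 1 poly(A) library per rat. The Normal rats (n = 2) received neither collagenase nor aspiration. The IC rats (common hemorrhage, n = 3) received 0.2 U of collagenase VII-S in 1.0 μL in the right striatum, and the IS rats (severe hemorrhage, n = 3) received 0.6 U in 3.0 μL. The IS-HA rats (n = 3) received the IS injection, and 6 h later were anesthetized again for withdrawal of 150 μL, about 75% of the hematoma, through a catheter. Collagenase digests the vessel wall, and the Normal rats had no sham injection, so injection and bleeding cannot be told apart here. The labels name no altered genotype in any group.

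TGF-beta is secreted in a latent complex in which a latency peptide, often bound to a latent TGF-beta binding protein such as Ltbp1, holds the ligand until integrins, proteases or thrombospondin release it. The free ligand binds the type II receptor Tgfbr2, which phosphorylates the type I receptor Tgfbr1, which in turn phosphorylates Smad2 and Smad3. These enter the nucleus with Smad4, while Smad7 and Skil act as negative feedback on the receptor and on the Smads. In brain, TGF-beta signaling maintains the microglial gene program and takes part in glial scar formation and matrix deposition after injury.

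The upstream sequences of 3 members are shown because Tgfb1 and Tgfbr1 were among the genes with the greatest rise and Skil is a feedback gene that was lower. They are given 5′ to 3′ from the RefSeq promoter table on GRCr8, a later build than the mRatBN7.2 of the counts, and hold only bases before the outermost annotated start. Capitals mark CAGAC or its reverse complement GTCTG, the core of the Smad3 and Smad4 binding element, and GGCGC or GCGCC, a GC-rich Smad motif.

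Tgfb1, chr1:90324062-90324311, plus strand, 250 bases: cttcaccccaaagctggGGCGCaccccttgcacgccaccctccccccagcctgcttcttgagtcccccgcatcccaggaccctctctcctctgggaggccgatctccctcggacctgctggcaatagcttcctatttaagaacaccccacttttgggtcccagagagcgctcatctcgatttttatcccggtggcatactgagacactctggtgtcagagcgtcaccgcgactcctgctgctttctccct

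Tgfbr1, chr5:66449148-66449347, plus strand, 200 bases: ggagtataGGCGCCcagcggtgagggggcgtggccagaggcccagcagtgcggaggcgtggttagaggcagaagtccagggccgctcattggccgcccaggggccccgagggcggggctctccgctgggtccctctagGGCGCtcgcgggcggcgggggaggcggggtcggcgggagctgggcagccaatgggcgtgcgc

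Skil, chr2:114203664-114203822, minus strand, 159 bases: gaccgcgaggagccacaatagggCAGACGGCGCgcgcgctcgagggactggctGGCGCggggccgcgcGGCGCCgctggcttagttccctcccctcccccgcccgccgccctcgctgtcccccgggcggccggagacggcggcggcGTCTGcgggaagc

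The Skil sequence held 2 matches to the Smad core and 4 to the GC-rich motif on both strands together, with 1 of each side by side. Tgfb1 held 1 match to the GC-rich motif and Tgfbr1 held 3, and neither held the Smad core. Where the GC-rich motif overlaps its own reverse complement, 2 matches are counted, 1 on each strand. In the full promoter windows of the table, the Smad core was present in 2 of the 10 members (Ltbp1 and Skil) and in 50.1% of all 33469 promoters. The GC-rich motif was in 8 of 10 members and in 34.2% of all promoters, and the longer palindrome GTCTAGAC was in 0 of 10 members and in 0.197% of promoters.

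Counts assigned to genes ranged from 6701301 to 18817645 per rat, so that the floor of 3 counts lay between 0.159 and 0.448 CPM. Member counts ran from 18 in a rat for Ltbp1 to 5390 for Tgfbr1, and Ltbp1 is the only member with under 30 counts in any rat. The labelled tissue carried its defining markers: the 8 markers of medium spiny neurons, Drd1, Drd2 and Penk among them, summed to 6114 to 6620 TPM in Normal. IS-HA replicate 2 held the smallest library and had the lowest TPM of all 11 rats for Ltbp1, Smad3, Smad7 and Skil, and results are given with and without it where they differed.

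Tgfb1, Tgfb3, Tgfbr1 and Tgfbr2 were higher than Normal in IC, IS and IS-HA. Ltbp1 was higher in IS, Smad3 and Smad7 were lower in IS and IS-HA, and Skil was lower in IS. Tgfb2 and Smad2 passed the test in no comparison. By the quasi-likelihood test of edgeR, adjusted over 15742 genes by the Benjamini-Hochberg method and read at an adjusted p under 0.05, 4 members were higher and 0 lower in IC against Normal, where 13.0% of all genes were higher and 4.64% lower. In IS against Normal, 5 were higher and 3 lower, beside 24.8% and 24.2% of all genes. In IS-HA against Normal, 4 were higher and 2 lower, beside 19.5% and 12.1%. The median log2 fold change of the members was 0.25, 0.85 and 0.51 in these 3 comparisons, which share the same 2 Normal rats, and that of all genes was 0.0033, 0.018 and 0.056. The lower calls among the members were few and, in IS, close in share to those of all genes, and whether the members differed from other genes was not tested. Without IS-HA replicate 2, the calls were 4 higher and 1 lower in IC (beside 19.2% and 14.1% of genes), 6 and 3 in IS (30.2% and 29.2%) and 4 and 2 in IS-HA (17.7% and 10.6%). By TPM, 4 members lay above Normal and 1 below without overlap in IC (34.6% and 25.1% of genes), 6 and 3 in IS (37.2% and 35.2%) and 5 and 2 in IS-HA (33.3% and 23.5%).

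**Figure D1:**
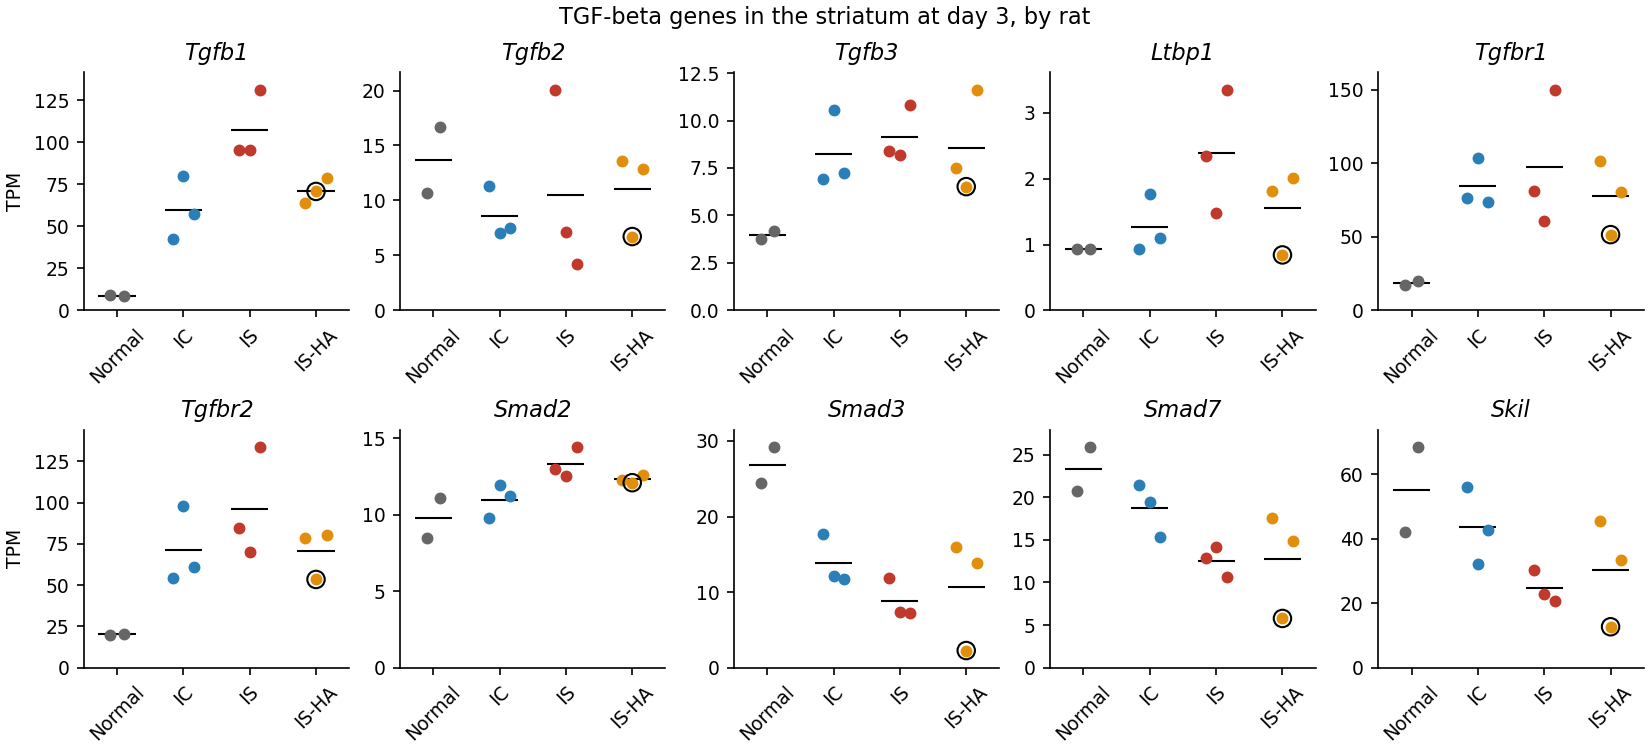
TPM of the 10 TGF-beta genes in each rat (points; vertical axes start at 0 and differ between panels) by group, with the group mean as a line and IS-HA replicate 2 circled. All 9 hemorrhage rats lie above both Normal rats for Tgfb1, Tgfb3, Tgfbr1 and Tgfbr2, and all 9 lie below both for Smad3.

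Tgfb1 (ENSRNOG00000020652), the ligand made mainly by myeloid and glial cells after brain injury, had the largest fold change of the members against Normal. Its level was 9.29 and 8.31 TPM in the Normal rats, 42.3, 79.6 and 57.1 in IC, 95.2, 95.6 and 131 in IS, and 63.7, 70.7 and 78.6 in IS-HA. Every hemorrhage rat lay above both Normal rats, and the 3 IS rats lay above every IC and IS-HA rat. Against Normal, the log2 fold change was 2.70 (SE 0.32, adjusted p = 3.5e-04) in IC, 3.63 (SE 0.34, adjusted p = 4.1e-05) in IS and 3.00 (SE 0.33, adjusted p = 1.6e-04) in IS-HA. These 3 calls held in all 21 alternatives computed for each.

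Tgfb1 did not pass between the hemorrhage groups. IS exceeded IC by 0.93 on the log2 scale (SE 0.25, adjusted p = 0.148), and IS-HA was below IS with a log2 fold change of -0.63 (SE 0.25, adjusted p = 0.550). Without IS-HA replicate 2, a rat of neither group, IS against IC passed with the same log2 fold change of 0.93 (adjusted p = 0.0351). DESeq2's Wald test on all rats gave 0.95 and an adjusted p of 0.0258. These were the only 2 of 21 alternatives in which this difference passed. Its log2 fold change ran from 0.70 to 1.14 over the 21.

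Tgfb2 (ENSRNOG00000002418), a ligand that neurons and astrocytes express, behaved otherwise. It stood at 10.7 and 16.7 TPM in Normal, 11.3, 7.01 and 7.45 in IC, 20.1, 7.16 and 4.22 in IS, and 13.6, 6.72 and 12.9 in IS-HA. IS held both the highest and the lowest of the 11 values, and each hemorrhage group overlapped Normal. The log2 fold changes against Normal were -0.72 (SE 0.48, adjusted p = 0.311) in IC, -0.40 (SE 0.48, adjusted p = 0.513) in IS and -0.34 (SE 0.48, adjusted p = 0.601) in IS-HA. Without IS replicate 2, its highest rat, the value in IS was -1.19 and passed (adjusted p = 0.0192).

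Tgfb3 (ENSRNOG00000009867), the least abundant ligand in Normal by TPM, was about doubled. Its level was 3.78 and 4.17 TPM in Normal, 6.94, 10.5 and 7.21 in IC, 8.39, 8.19 and 10.8 in IS, and 7.51, 6.52 and 11.6 in IS-HA. The 9 hemorrhage rats lay above both Normal rats, and IC, IS and IS-HA overlapped one another. Against Normal, the difference on the log2 scale was 0.99 (SE 0.28, adjusted p = 0.0350) in IC, 1.22 (SE 0.29, adjusted p = 0.0055) in IS and 1.07 (SE 0.28, adjusted p = 0.0171) in IS-HA. The IC call was lost without Normal replicate 1 (adjusted p = 0.144), Normal replicate 3 (0.207), IC replicate 3 (0.126) or IC replicate 4 (0.0756). The IS-HA call was lost without Normal replicate 1 (adjusted p = 0.0869) or Normal replicate 3 (0.113), while the IS call held without any 1 rat. The IC call was also lost with limma on log2(TPM + 1) (0.0596), and the IS-HA call with only the 2 groups compared (0.0653).

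The make-up of the ligand pool was read from the share of each ligand in the summed TPM. Summed ligand TPM was 26.4 ± 3.81 (SD, n = 2) in Normal, 76.5 ± 18.8 (n = 3) in IC, 127 ± 17.8 (n = 3) in IS and 90.6 ± 10.8 (n = 3) in IS-HA. Tgfb1 made up 39.1% and 28.5% of it in the Normal rats, 69.9%, 81.9% and 79.6% in IC, 77.0%, 86.2% and 89.7% in IS, and 75.1%, 84.2% and 76.2% in IS-HA. Tgfb2 was the leading ligand by TPM in both Normal rats, at 44.9% and 57.2%, and Tgfb1 was the leading ligand in every hemorrhage rat. A two-sided exact permutation test gave p = 0.2 for the Tgfb1 share of each hemorrhage group against Normal, the smallest p that 3 against 2 rats allow. The share differed by 7.17 percentage points between IS and IC (exact p = 0.3) and by -5.75 between IS-HA and IS (exact p = 0.2), where 0.1 was the smallest possible, and over the 5 comparisons the Benjamini-Hochberg adjusted values were 0.25 to 0.3.

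**Figure D2:**
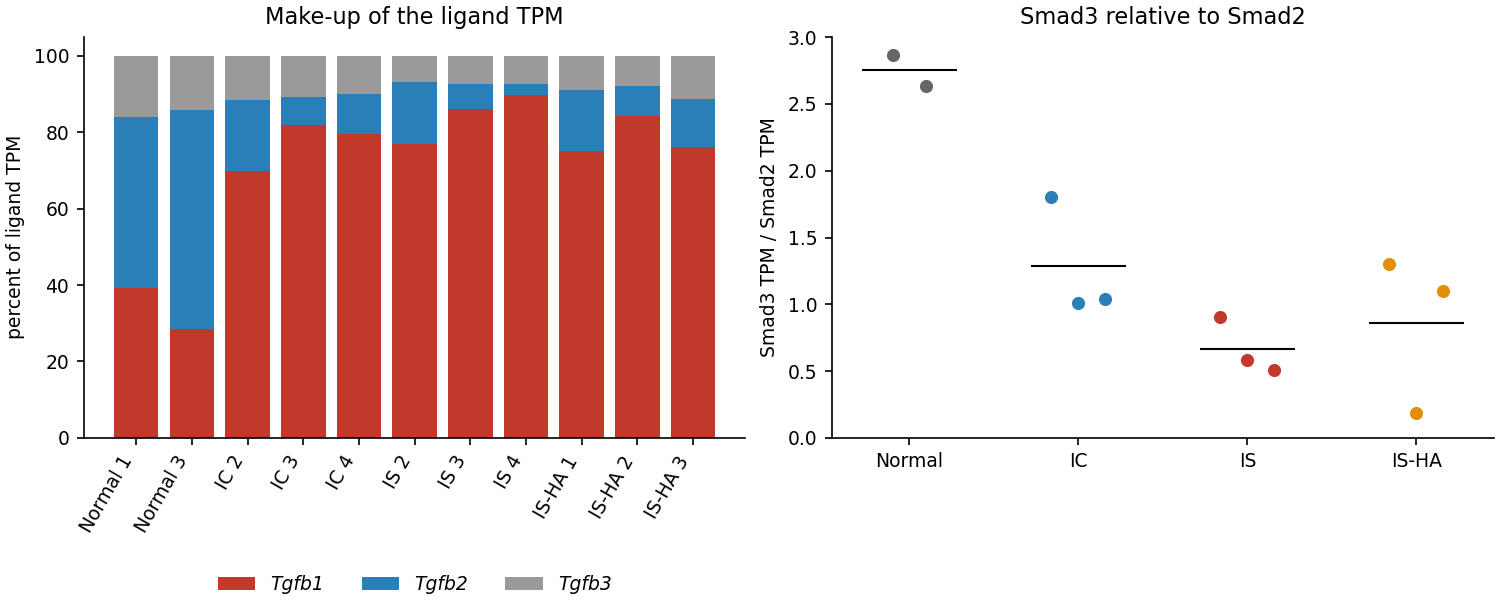
Left, percent of the summed TPM of Tgfb1, Tgfb2 and Tgfb3 taken by each ligand in each rat (stacked bars; numbers are replicates); right, the ratio of Smad3 to Smad2 TPM in each rat (points) with the group mean (line). Tgfb1 takes 28.5% and 39.1% in the Normal rats and 69.9% or more in every hemorrhage rat, and the Smad ratio is highest in the 2 Normal rats.

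Ltbp1 (ENSRNOG00000033090), which tethers latent TGF-beta to the matrix, was the lowest member by TPM in every group. It measured 0.938 and 0.937 TPM in Normal, 0.934, 1.76 and 1.11 in IC, 2.34, 1.49 and 3.35 in IS, and 1.81, 0.843 and 2.02 in IS-HA. IS lay above Normal without overlap, whereas IC and IS-HA each had a rat below Normal. In IS the log2 fold change was 1.37 (SE 0.43, adjusted p = 0.0222), beside 0.38 (SE 0.42, adjusted p = 0.556) in IC and 0.69 (SE 0.42, adjusted p = 0.226) in IS-HA. The IS call was lost without Normal replicate 1 (adjusted p = 0.0845), Normal replicate 3 (0.129) or IS replicate 4 (0.0784), and with both limma fits (0.0536 and 0.0634). The ratio of Tgfb1 to Ltbp1 TPM was 9.91 and 8.87 in Normal and 35.1 to 83.9 across the hemorrhage rats.

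Both receptors rose in every hemorrhage group. Tgfbr1 (ENSRNOG00000007036), the type I receptor kinase, stood at 16.9 and 20.0 TPM in Normal, 76.4, 104 and 73.6 in IC, 81.1, 60.8 and 150 in IS, and 102, 51.5 and 80.5 in IS-HA. The lowest hemorrhage rat, IS-HA replicate 2, was still well above both Normal rats, and the 3 hemorrhage groups overlapped. The log2 fold change was 2.14 (SE 0.39, adjusted p = 0.0036) in IC, 2.44 (SE 0.39, adjusted p = 7.6e-04) in IS and 2.04 (SE 0.38, adjusted p = 0.0033) in IS-HA, and these calls held in all 21 alternatives of each.

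Tgfbr2 (ENSRNOG00000013265), the ligand-binding type II receptor, stood at 19.9 and 20.6 TPM in Normal, 54.1, 98.0 and 60.9 in IC, 84.8, 70.1 and 134 in IS, and 78.6, 53.4 and 80.1 in IS-HA. Again no hemorrhage rat reached down to Normal, and IS replicate 4 was the highest for both receptors. Tgfbr2 rose by 1.74 (SE 0.33, adjusted p = 0.0045) in IC, 2.28 (SE 0.34, adjusted p = 4.8e-04) in IS and 1.77 (SE 0.33, adjusted p = 0.0030) in IS-HA. The IC call was lost without Normal replicate 3 (adjusted p = 0.0646). The 2 receptors kept a TPM ratio (Tgfbr2 over Tgfbr1) near parity in every rat, between 0.708 and 1.18.

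Against Normal, markers of myeloid cells moved in the same direction as Tgfb1 and the receptors in each hemorrhage group, though not rat by rat. The 8 microglia and macrophage markers, among them Aif1, Csf1r and Tyrobp, summed to 184 to 280 TPM in Normal, 1960 to 2724 in IC, 3730 to 4810 in IS and 2625 to 4566 in IS-HA, and 8 of 8 were higher in each hemorrhage group. The neutrophil list rose from 5.23 and 5.24 TPM in Normal to 93.1 to 302 in IC, 533 to 754 in IS and 187 to 894 in IS-HA, with 6 of 6 tested markers higher and Camp at 0 in both Normal rats. Of all genes, 13.0%, 24.8% and 19.5% were higher in IC, IS and IS-HA. IS-HA replicate 2 had the highest sums of its group, 4566 and 894 TPM, beside 2625 and 2867, and 187 and 237, in the other rats. It had the lowest Tgfbr1 (51.5 TPM) and Tgfbr2 (53.4 TPM) of the hemorrhage rats. In RNA of whole tissue, more or fewer cells of a type and more or less RNA per cell cannot be told apart, and the part of these cells in the ligand and receptor results was not tested.

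Of the 2 receptor-activated Smads, Smad2 passed in no comparison with Normal and Smad3 was lower in IS and IS-HA. The difference between these genes was not tested. Smad2 (ENSRNOG00000018140) stood at 8.51 and 11.1 TPM in Normal, 9.79, 12.0 and 11.2 in IC, 13.0, 12.6 and 14.4 in IS, and 12.3, 12.1 and 12.6 in IS-HA. Every IS and IS-HA rat lay above every Normal and IC rat, over a narrow range. The log2 fold change against Normal was 0.12 (SE 0.20, adjusted p = 0.713) in IC, 0.47 (SE 0.21, adjusted p = 0.0797) in IS and 0.33 (SE 0.21, adjusted p = 0.229) in IS-HA. Without IS-HA replicate 2, the IS value of 0.47 passed (adjusted p = 0.0380), and it also passed with scaling by library size alone (0.60, adjusted p = 0.0237).

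Smad3 (ENSRNOG00000008620) stood at 24.4 and 29.2 TPM in Normal, 17.7, 12.1 and 11.7 in IC, 11.8, 7.36 and 7.29 in IS, and 15.9, 2.26 and 13.9 in IS-HA. All hemorrhage rats lay below both Normal rats, and IS-HA replicate 2 was lower than any other rat. The log2 fold change was -1.01 (SE 0.48, adjusted p = 0.164) in IC, -1.60 (SE 0.49, adjusted p = 0.0203) in IS and -1.41 (SE 0.49, adjusted p = 0.0480) in IS-HA. Without IS-HA replicate 2, IC passed as well, with a log2 fold change of -1.01 (adjusted p = 0.0056). The IS call was lost without Normal replicate 1 (adjusted p = 0.0596), Normal replicate 3 (0.0930), IS replicate 3 (0.0643) or IS replicate 4 (0.0602). The IS-HA call was the least firm, being lost without Normal replicate 1 (adjusted p = 0.122), Normal replicate 3 (0.194) or IS-HA replicate 3 (0.0574), and also without any IC or IS rat (0.0564 to 0.0675).

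The ratio of Smad3 to Smad2 TPM was 2.87 and 2.63 in Normal, 1.80, 1.01 and 1.04 in IC, 0.908, 0.586 and 0.505 in IS, and 1.30, 0.187 and 1.10 in IS-HA. Smad3 thus exceeded Smad2 in each Normal and IC rat and was below it in each IS rat. In IS-HA the ratio was under 1 in replicate 2 and over 1 in the other rats.

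Smad7 (ENSRNOG00000018359), the inhibitory Smad that TGF-beta itself induces, had a negative log2 fold change in each hemorrhage group. Its level was 20.7 and 25.9 TPM in Normal, 21.5, 19.4 and 15.4 in IC, 12.8, 14.1 and 10.7 in IS, and 17.5, 5.77 and 14.9 in IS-HA. IC overlapped Normal, while every IS and IS-HA rat lay below it. The log2 fold change was -0.37 (SE 0.29, adjusted p = 0.385) in IC, -0.88 (SE 0.29, adjusted p = 0.0272) in IS and -0.93 (SE 0.29, adjusted p = 0.0321) in IS-HA. The IS call was lost without Normal replicate 1 (adjusted p = 0.0665), Normal replicate 3 (0.146), IS replicate 2 (0.0644) or IS replicate 4 (0.0761), and the IS-HA call without Normal replicate 1 (0.0841) or Normal replicate 3 (0.183). The 3 IS rats also lay below the 3 IC rats, with a log2 fold change of -0.50 (SE 0.26, adjusted p = 0.270) that passed without IS-HA replicate 2 (adjusted p = 0.0461).

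Skil (ENSRNOG00000009899), which encodes the Smad corepressor SnoN and is another TGF-beta response gene, was the most abundant member in Normal by TPM. It stood at 42.1 and 68.4 TPM in Normal, 55.9, 32.0 and 42.8 in IC, 30.3, 22.9 and 20.6 in IS, and 45.3, 12.7 and 33.2 in IS-HA. IS lay below both Normal and IC without overlap, and IC and IS-HA overlapped Normal. Log2 fold changes were -0.38 (SE 0.37, adjusted p = 0.497) in IC, -1.15 (SE 0.37, adjusted p = 0.0247) in IS and -0.92 (SE 0.37, adjusted p = 0.0782) in IS-HA. The IS call was lost without Normal replicate 3 (adjusted p = 0.196), IS replicate 3 (0.0673) or IS replicate 4 (0.0709). The IS-HA value passed in DESeq2's Wald test (-0.97, adjusted p = 0.0467), which called 15.2% of genes lower and 19.4% higher, and in edgeR without IS-HA replicate 1 (-1.27, adjusted p = 0.0250).

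The 3 lower calls of Smad3, Smad7 and Skil in IS were lost in both limma fits (adjusted p 0.0548 to 0.0957), and those of Smad7 (0.0729) and Skil (0.0525) also with scaling by library size alone. In IS-HA, the calls of Smad3 (0.0879) and Smad7 (0.0820) were likewise lost with library size alone, and in both limma fits (0.0705 to 0.0892).

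Summed neuronal markers were lower than Normal in every hemorrhage rat. The 8 neuron markers, Rbfox3 and Snap25 among them, summed to 2656 to 3626 TPM in Normal, 1073 to 1665 in IC, 427 to 1576 in IS and 915 to 1948 in IS-HA, with 3, 7 and 1 of 8 lower in the tests against Normal. Of all genes, 4.64%, 24.2% and 12.1% were lower in these tests, and the IS-HA count was near that share. The medium spiny neuron markers summed to 2750 to 5474 TPM in IC, 1351 to 3561 in IS and 1353 to 3009 in IS-HA, with 0, 7 and 7 of 8 lower. The oligodendrocyte list went from 17779 to 18274 TPM in Normal to 10671 to 15322 in IC, 6422 to 10739 in IS and 10036 to 15025 in IS-HA. Of its 8 markers, 0, 6 and 1 were lower in IC, IS and IS-HA, and the IS-HA count was near the 12.1% of all genes. The astrocyte list went from 2848 and 2913 TPM to 6066 to 8319 in IC and 3414 to 6021 in IS, with 2 of 8 markers higher and 1 lower in IC and 1 of each in IS. Of all genes, 13.0% were higher and 4.64% lower in IC, and 24.8% and 24.2% in IS, so the IS counts were not above those shares. The astrocyte sum was carried by the reactive marker Gfap, which was at 401 TPM in Normal and 3545 in IS (log2 fold change 3.15). The glutamate transporter Slc1a2 was lower in IS (-3.74). Aldoc (-0.80), Aqp4 (-0.54), Slc1a3 (-0.50), Aldh1l1 (-0.38), Gja1 (-0.10) and Sox9 (0.42) did not pass. The mean log2 level of the 8 markers relative to Normal was 0.39 ± 0.034 (SD, n = 3) in IC and -0.36 ± 0.49 (n = 3) in IS. The part of these cell types in the Smad and Skil results was not tested.

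**Figure D3:**
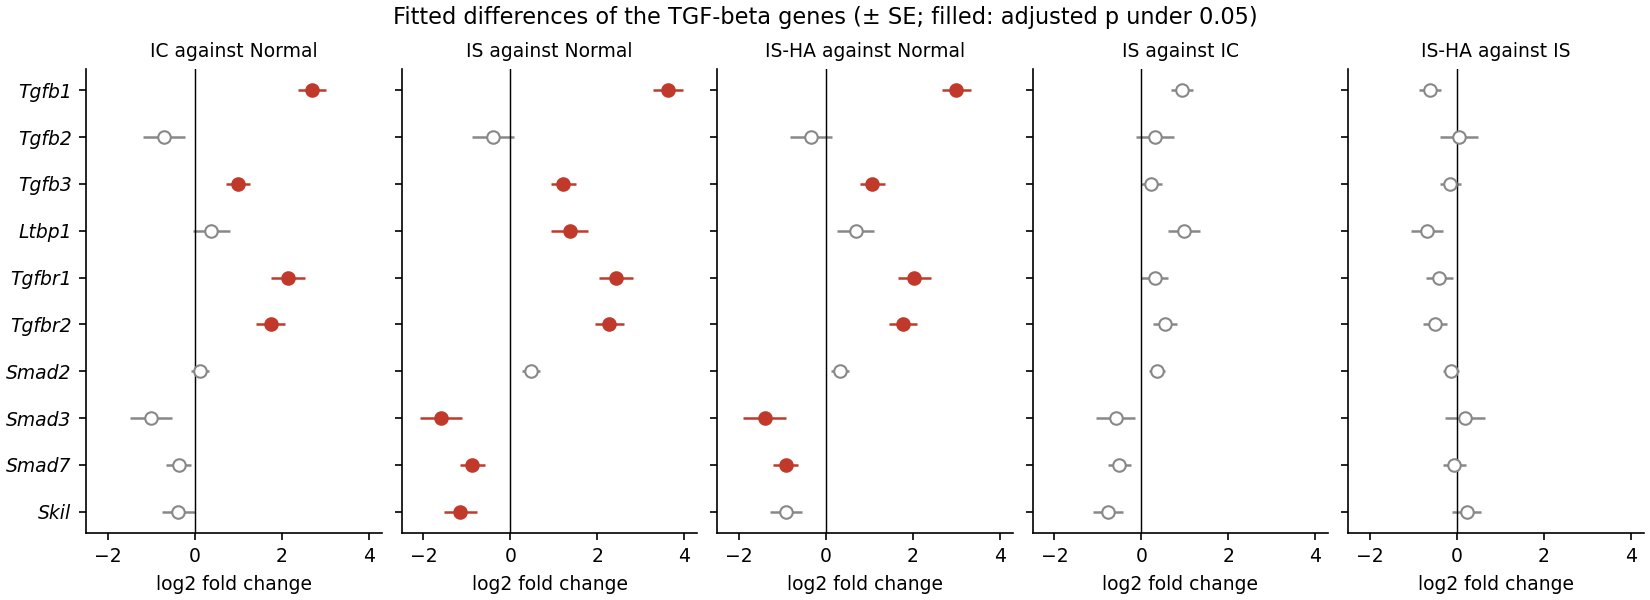
Log2 fold change of each TGF-beta gene (horizontal axis; point and SE bar) in the 5 comparisons, from edgeR's quasi-likelihood fit over 11 rats; filled points passed an adjusted p of 0.05. Filled points are seen in the 3 comparisons with Normal, 4, 8 and 6 of 10, and none in IS against IC or IS-HA against IS.

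By TPM, which is per length, the order of the members changed with hemorrhage. In Normal the means ran from Skil at 55.2 through Smad3 at 26.8, Smad7 at 23.3, Tgfbr2 at 20.3, Tgfbr1 at 18.5, Tgfb2 at 13.7, Smad2 at 9.79 and Tgfb1 at 8.80 down to Tgfb3 at 3.97 and Ltbp1 at 0.937. In IS the means were led by Tgfb1 at 107, Tgfbr1 at 97.3 and Tgfbr2 at 96.2, whose ranges over the 3 rats overlapped, followed by Skil at 24.6. Smad3 moved from the second place in Normal to the ninth in IS, at 8.82.

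Severe and common hemorrhage were compared by IS against IC, which differ in both collagenase dose and injected volume, so that these cannot be told apart. None of the 10 members passed, and 0 of 15742 genes did, so 0.00% were called in either direction by edgeR, although 22.2% of genes and 3 members (Tgfb1, Ltbp1 and Skil) had an unadjusted p under 0.05. DESeq2's Wald test called 3.18% of genes higher and 3.42% lower, with Tgfb1 as the 1 member. The edgeR fit without IS-HA replicate 2 called 6.38% higher and 7.71% lower, with Tgfb1 higher and Smad7 lower among the members. By TPM, Tgfb1 and Smad2 were higher and Smad7 and Skil lower in IS with no overlap, beside 15.4% and 18.0% of all genes apart in the same directions. Ltbp1 was above IC by 0.99 on the log2 scale (SE 0.37, adjusted p = 0.180), with overlap between the groups.

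Aspiration was addressed by IS-HA against IS, which also differ in the second anesthesia and the catheter, so that these cannot be told apart. Again 0 of 10 members passed, beside 0.00635% of genes higher (1 gene) and 0.00% lower, while 8.94% of genes and 1 member, Tgfb1, had an unadjusted p under 0.05. The members' log2 fold changes lay between -0.68 for Ltbp1 (SE 0.37, adjusted p = 0.578) and 0.23 for Skil (SE 0.34, adjusted p = 0.850), with a median of -0.14 beside 0.045 for all genes. DESeq2's Wald test called 0.272% higher and 0.121% lower and no member. Leaving out IS-HA replicate 2, edgeR called 3.40% higher and 0.975% lower, again with no member. Tgfb1 was the only member whose TPM did not overlap between the groups, lower in IS-HA, as were 6.37% of all genes, and 0 members lay above IS, beside 3.60%.

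Genes around the members were read from 6 lists, in IS against Normal unless another group is named. Whether a list differed from other genes was not tested, and its counts are given beside the share of all genes called. Of 15 genes for latency and activation, 11 were higher and 2 lower, beside 24.8% and 24.2% of all genes (median log2 fold change 1.42, beside 0.018 for all genes). Thbs1, the thrombospondin that releases latent TGF-beta, went from 1.33 ± 0.766 TPM (SD, n = 2) to 110 ± 82.4 (n = 3), a log2 fold change of 6.43 (SE 0.97, adjusted p = 5.5e-04). Ltbp2 (4.14), Nrros (3.31), which anchors latent TGF-beta on microglia, and Emilin1 (2.23), which limits maturation of the ligand, were also higher. Ltbp2 was low throughout, at 0.210 ± 0.0739 TPM in Normal and 3.67 ± 1.14 in IS. The integrin beta subunits of the list did not move together. Itgb8 (-3.47, SE 0.72, adjusted p = 0.0029) and Itgb6 (-3.10, SE 0.55, adjusted p = 0.0013) were the 2 that were lower, whereas Itgb5 (1.51, adjusted p = 4.7e-04) and Itgb1 (1.39, adjusted p = 5.4e-04) were higher and Itgb3 had a log2 fold change of 1.42 (adjusted p = 0.0719). Itgb1, Itgb3 and Itgb5 were named after their values were seen. In IC and IS-HA against Normal, 9 of 15 were higher in each (beside 13.0% and 19.5% of genes), with 0 and 1 lower (4.64% and 12.1%).

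Of 11 coreceptors and receptor regulators, 4 were higher and 3 lower (median -0.31), beside 24.8% and 24.2% of all genes, and the lower count is near that share. Dab2, an endocytic adaptor of the receptors, rose by 3.35 on the log2 scale (SE 0.37, adjusted p = 9.9e-05) and Eng, the endothelial coreceptor endoglin, by 2.39 (SE 0.46, adjusted p = 0.0020). Bambi, a pseudoreceptor that dampens signaling, rose by 1.25 and Acvrl1, an endothelial type I receptor, by 0.97. Zfyve9, the Smad anchor SARA, was lower (-1.72, SE 0.28, adjusted p = 8.8e-04), as were the ubiquitin ligases Nedd4l (-1.63) and Smurf1 (-0.46). Without IS-HA replicate 2, 4 of 11 were higher and 6 lower, beside 30.2% and 29.2%.

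Of 12 other Smads and Smad partners, 11 were tested, with 3 higher and 3 lower (median 0.023), which is near the 24.8% and 24.2% of all genes. Runx1 rose by 4.71 (SE 0.69, adjusted p = 4.5e-04), and the corepressors Tgif1 and Tgif2 by 3.27 (SE 0.40, adjusted p = 1.6e-04) and 1.96 (SE 0.40, adjusted p = 0.0027). Runx1 was at 0.210 ± 0.224 TPM (SD, n = 2) in Normal and 5.54 ± 1.71 (n = 3) in IS, so the size of its change rests on a low Normal level. Trim33 (-1.15), the coactivator Ep300 (-0.61) and the Smad phosphatase Ppm1a (-0.49) were lower. Smad4, the common partner, had a log2 fold change of -0.42 (adjusted p = 0.0665) and was named after its value was seen.

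Of 18 genes known as TGF-beta targets, 12 were higher and 0 lower in IS (median 2.19), 12 and 0 in IS-HA (median 1.77) and 11 and 0 in IC (median 1.53), where 24.8%, 19.5% and 13.0% of all genes were higher and 24.2%, 12.1% and 4.64% lower. The list leaves out the members Smad7 and Skil, which are TGF-beta response genes too. Both were lower in IS (-0.88 and -1.15), so the count of 0 lower depends on the make-up of the list. Timp1, an inhibitor of matrix proteases, rose from 3.32 ± 0.904 TPM in Normal to 372 ± 48.7 in IS (log2 fold change 6.83, SE 0.59, adjusted p = 3.6e-05). Postn, a matrix protein, rose by 6.01 (SE 0.46, adjusted p = 3.1e-05) and Tgfbi by 5.31 (SE 0.64, adjusted p = 1.6e-04). Their levels in IS-HA were 286 ± 115 TPM for Timp1, 20.4 ± 3.78 for Postn and 38.4 ± 13.9 for Tgfbi (SD, n = 3). The targets that did not pass in IS were Acta2 (0.58), Lox (0.53), Bhlhe40 (0.46), Junb (0.36), Snai2 (0.060) and Ccn2 (-0.32), named after their values were seen. No target passed in IS against IC or IS-HA against IS, but without IS-HA replicate 2, 6 were higher in IS than IC (beside 6.38% of genes) and 2 were lower in IS-HA than IS (0.975%). Acta2, Col1a1 and Col1a2 stand both in this list and among the 9 mural cell and fibroblast markers, which summed to 194 to 220 TPM in Normal and 224 to 329 in IS. Their part in the target list was not tested.

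**Figure D4:**
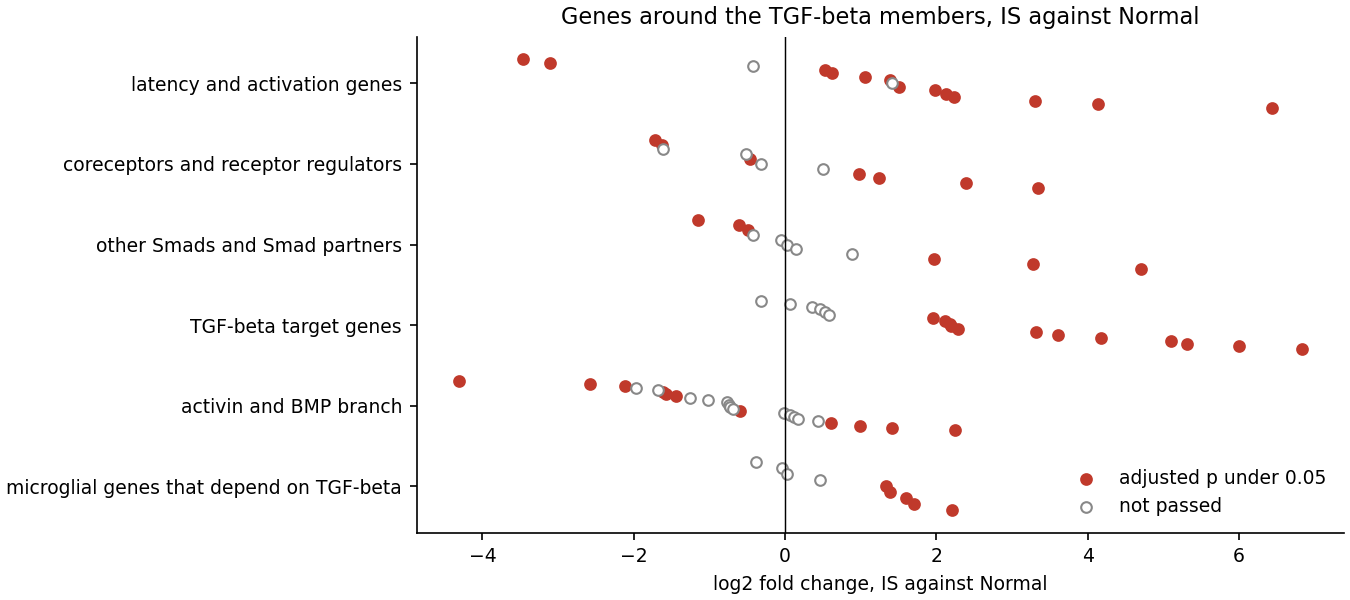
Log2 fold change in IS against Normal (horizontal axis) for each tested gene of 6 lists around the TGF-beta genes (1 point per gene; filled, adjusted p under 0.05 in edgeR's quasi-likelihood test); Siglech, at 0 in both Normal rats, is not drawn. The target list has 12 of 18 genes higher and 0 lower, and the activin and BMP list has 4 of 24 higher and 7 lower, beside 24.8% and 24.2% of all genes. The target list leaves out the response genes Smad7 and Skil, which are members and were lower in IS.

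Of 24 genes of the activin and BMP branch, which shares the receptor architecture, 4 were higher and 7 lower in IS (median -0.73), near the 24.8% and 24.2% of all genes. Without IS-HA replicate 2, 4 were higher and 12 lower, beside 30.2% and 29.2%. Inhba, the activin A subunit, was at 8.85 ± 4.05 TPM in Normal and 0.421 ± 0.0911 in IS (log2 fold change -4.31, SE 0.66, adjusted p = 5.7e-04). The type II receptors Bmpr2 (-2.58), Acvr2a (-2.12) and Acvr2b (-1.62) were lower too. Bmp7 rose by 2.24 (SE 0.49, adjusted p = 0.0040), and the BMP response genes Id1, Id3 and Id2 rose by 1.41, 0.98 and 0.61. Bmp2 was lower (-1.44, adjusted p = 0.0174), and Id4 had a log2 fold change of -0.69 (adjusted p = 0.0575). Bmp2 and Id4 were named after their values were seen. In IC 1 of 24 was higher and 0 lower (beside 13.0% and 4.64% of genes), and in IS-HA 2 were higher and 5 lower (19.5% and 12.1%).

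Of 10 microglial genes known to depend on TGF-beta, 6 were higher and 0 lower in IS (median 1.36), and 8 and 0 in both IC and IS-HA, where 24.8%, 13.0% and 19.5% of all genes were higher. Slc2a5, a fructose transporter, rose by 2.21 (SE 0.33, adjusted p = 4.9e-04) and the fractalkine receptor Cx3cr1 by 1.71 (SE 0.21, adjusted p = 1.8e-04). Siglech was at 0 TPM in both Normal rats and 3.34 ± 1.30 TPM (SD, n = 3) in IS. The 4 that did not pass in IS were P2ry12 (0.47), Sall1 (0.030), P2ry13 (-0.036) and Tmem119 (-0.38). These 4 and Gpr34 lay below IC without overlap by TPM in IS, as did 18.0% of all genes, with log2 fold changes from -0.83 for P2ry13 to -0.51 for Gpr34 against IC (adjusted p 0.147 to 0.239). These 5 genes were named after their values were seen. As the summed microglia and macrophage markers were also higher, the part of the number of myeloid cells in this list was not tested.

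Genes whose log2 CPM followed a member most closely over the 9 hemorrhage rats were read as a description, since the 3 groups and the library of each rat are shared by all the points. Tgfb1 was followed by Tpm4 (r = 0.995, rho = 0.983), Fermt3 (r = 0.992, rho = 1.0) and Glmp (r = 0.992, rho = 0.983). Tgfbr2 was followed by Itgb2 (r = 0.992, rho = 0.983), Cd53 (r = 0.987, rho = 0.983) and Hnrnpul1 (r = 0.983, rho = 1.0), and Tgfbr1 by Manba (r = 0.950, rho = 0.933), Rab9a and Nfatc3. Smad2 was followed by Spi1 (r = 0.989, rho = 0.983), Map4k1 and Unc13d, and Smad3 by Kansl1 (r = 0.990, rho = 0.967), Zdhhc17 and Rnf2. Smad7 was followed by Scn7a (r = 0.979, rho = 0.983) and S100pbp (r = 0.979, rho = 0.967), and Skil by Ccng2 (r = 0.988, rho = 0.933), Mbd5 and Tacr1. For Tgfb2 the closest were Nptx1 (r = 0.971, rho = 0.933), Tcerg1l and Olfm2, for Tgfb3 Bco2 (r = 0.951, rho = 0.917), Lif and Wdfy2, and for Ltbp1 Capza1 (r = 0.988, rho = 0.900), Rin2 and Cast.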

How the data were processed

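Poly(A) RNA of the striatum of 11 rats was sequenced as paired reads of 150 bases. The submitters' processing notes name fastp 0.20.0, HISAT2 2.1.0, SAMtools 1.9, featureCounts and the build mRatBN7.2, and the annotation version and the strand setting are not given in the sources used here. The authors deposited read counts per gene as whole numbers without normalization, and TPM, in which the authors divided counts by gene length and scaled each rat to the same sum. Columns were matched to rats by library name, with 0 left unmatched, and no 2 libraries were identical.

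Counts were filtered with filterByExpr, normalized by TMM and tested in 1 fit over 4 groups with edgeR 4.0.16 in R 4.3.3 (quasi-likelihood F test, Benjamini-Hochberg over 15742 genes, common dispersion 0.0691). SE is the absolute log2 fold change over the square root of F. Alternatives were DESeq2 1.42.0, limma 3.58.1 on log2(TPM + 1) and log2(TPM + 0.1), other scalings and filters, and leaving out each rat. With 1 Normal rat left, that rat is assumed to vary like the other groups. Nothing says that the rats' libraries were prepared independently, so p-values measure the spread between these samples. Floors of 3 counts cover counting error only.

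On data simulated for IS against Normal with 200 of 15742 genes changed, edgeR recovered 99% at a log2 change of 2, 10.5% at 1 and 0% at 0.5. Every simulated gene had the common dispersion, and far fewer genes changed than the 24.8% and 24.2% called in the data. These recoveries are therefore not those of the tests on the data. The members and gene lists were chosen with earlier results of these data known. Named list genes were, per list, up to 4 with the largest log2 fold change in each direction among those that passed in IS against Normal. For likeness the 3 genes with the highest Pearson r per member were named. Some genes that these rules select are not reported here. Of the marker lists, T cell Trac and Cd4 and blood Hba-a1, Hba-a2 and Hbb-bs were not matched by symbol. The T cell list had 1, 3 and 2 of 5 tested markers higher in IC, IS and IS-HA against Normal, the endothelial list 0, 3 and 0 of 8, the mural list 4, 5 and 4 of 9, and the blood list 0 of 2. The T cell call in IC was Cd8a, at 82.4 TPM beside 1.76 or less for the other tested markers. In IS, Cd8a was at 256 TPM beside 8.95 or less, and Cd3d and Cd3e did not pass. The endothelial and mural lists each had 0, 1 and 1 lower, which in IS were Flt1 (-0.58) and Rgs5 (-1.83). Of all genes, 13.0%, 24.8% and 19.5% were higher in IC, IS and IS-HA, and 4.64%, 24.2% and 12.1% lower. Promoters were searched for the motifs on both strands.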

Additional observations from a re-analysis of the deposited data

How the results depend on the processing

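Each of the 50 member results was recomputed under 21 alternatives, and none of the 18 that passed reversed. Every comparison with Normal rests on 2 Normal rats, so a member that did not pass is not shown to be equal.

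The number of members lower in IS against Normal was 3, and 1 with scaling by library size alone, 0 with limma on log2(TPM + 1) and on log2(TPM + 0.1), and 0 to 3 when 1 rat was left out. In IS-HA against Normal it was 2, and 0 with library size alone, 0 with both limma fits, 0 with only the 2 groups compared, 1 with an absolute log2 fold change of at least 1, and 0 to 2 with 1 rat left out. In IC against Normal the number lower was 0, and 2 with only the 2 groups compared (Tgfb2 and Smad3) and 0 to 1 with 1 rat left out, and the number higher was 2 to 4 with 1 rat left out. In IS against IC, 1 was higher with DESeq2, and 0 to 1 higher and 0 to 1 lower with 1 rat left out, the 1 in each direction being without IS-HA replicate 2. The causes were not tested.

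Scaling by library size alone moved the median log2 fold change of all genes to 0.14 in IC, 0.15 in IS and 0.18 in IS-HA against Normal. The genes called higher and lower were then 2626 and 295, 4594 and 2851, and 3815 and 1104, beside 2040 and 730, 3908 and 3802, and 3067 and 1898 with TMM.

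Rats with the same replicate number were different animals. The correlation of their deviations from the group means averaged 0.034 for IS and IC (3 pairs), -0.16 for IS-HA and IC (2 pairs) and -0.28 for IS-HA and IS (2 pairs). So few pairs cannot decide whether rats with the same number were handled together, and the block is given as an alternative only. With the replicate number as a block, 3 members were higher and 0 lower in IS against Normal, 3 and 0 in IC against Normal and 4 and 0 in IS-HA against Normal. The calls lost were those of Tgfb3 in IC (adjusted p = 0.240) and IS (0.0658), Ltbp1 (0.102) and Skil (0.201) in IS, and Smad3 and Smad7 in IS (0.263 and 0.319) and IS-HA (0.121 and 0.0915). Under the block, Smad2 (-0.076) and Smad7 (0.0023) in IC against Normal and Smad2 (0.030) and Smad3 (-0.21) in IS-HA against IS changed sign.

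The other changes of sign were also in values that had not passed. When 1 rat was left out, log2 fold changes in IS against IC ranged from -0.47 (without IS replicate 2) to 0.67 for Tgfb2 and from -0.23 (without IS replicate 4) to 0.57 for Tgfbr1. In IS-HA against IS they ranged from -0.29 to 0.85 for Tgfb2, below 0 without IS replicate 3 (-0.17), IS replicate 4 (-0.29), IS-HA replicate 1 (-0.067) or IS-HA replicate 3 (-0.036). There the ranges were -0.37 to 0.043 for Tgfb3 and -0.69 to 0.13 for Tgfbr1, both reversed without IS replicate 4, and -0.31 to 0.22 for Smad7, reversed without IS replicate 3 (0.012) or IS-HA replicate 2 (0.22). Smad3 ranged from -0.19 (without IS-HA replicate 1) to 0.62 and was -0.021 without IS-HA replicate 3, and limma gave -0.038 on log2(TPM + 1) and -0.10 on log2(TPM + 0.1). Skil ranged from -0.13 (without IS-HA replicate 1) to 0.54.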
